A study of Bos taurus with 57 samples.

Results

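A group of 150 genes was examined that were scarce in the anterior pituitary of bull calves and scarcer still in the arcuate nucleus (ARC) and testes. They were chosen from 24616 genes by their levels in calves on the high plane of nutrition. Reads on each gene were scaled to the same library total (CPM), and the mean was taken over the high plane libraries of each tissue. Of the 5714 genes with a mean of 2 to below 20 CPM in the anterior pituitary, the 150 with the largest ratio of pituitary level to the larger of the other levels were kept, with 0.5 CPM added to each mean. CPM is not divided by gene length, so the limits of 2 and 20 CPM concern reads and not transcripts.

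The libraries were made from Holstein-Friesian bull calves slaughtered at 126 days of age. Calves on the high plane of nutrition had a labelled growth rate of 1.08 kg/day and those on the low plane 0.5 kg/day, whereas the design text of the series aims at 1.2 and 0.5 kg/day. The anterior pituitary was represented by 9 libraries from the high plane and 10 from the low plane, the ARC in 10 and 10, and the testes in 10 and 8. All groups were of 1 breed and age, and each library was RNA of a dissected piece of tissue that holds many cell types. The labels do not state which libraries came from the same calf. The files list Ensembl identifiers and do not pair them with gene names, so neither the role of a gene nor the markers of a cell type could be read from them.

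The anterior pituitary secretes growth hormone, prolactin, adrenocorticotrophic hormone, thyroid stimulating hormone, luteinizing hormone and follicle stimulating hormone, from several types of endocrine cell. Luteinizing and follicle stimulating hormone both come from gonadotrophic cells. The endocrine cells of the gland respond to hormones that reach it from the hypothalamus by portal blood. Hormone transcripts are very abundant in the gland, whereas receptors, ion channels and lineage transcription factors are usually present at far lower levels.

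Library totals ran from 898979 to 32009433 reads, and 135 of the 150 genes had at least 1 read in each of the 19 pituitary libraries. The lowest total was that of C22, a high plane ARC library with 112 reads on 46 of the 150 genes. The next lowest was 6895844 reads in A57. Without C22 the rule chose 146 of the 150 again. The libraries did not form a single cloud within a tissue. A library score was computed from 200 genes that carried the main axis of variation in both other tissues, as their average log2 CPM. It split the pituitary libraries into 5 at -1.63 to -0.75 and 14 at 4.01 to 4.85. The 5 were A57, A51 and A18 on the high plane and A10 and A47 on the low plane. In the ARC, C6 and C33 of the low plane had scores under 2. In the testes, B42 of the high plane and B21, B2, B15, B26 and B20 of the low plane did, so that there the score moved with diet. What the score stands for was not tested. The ARC library C8 and the pituitary library A47 also stood apart and are described with the levels they affect.

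The 150 genes together held a very small share of the reads, and the sum separated the pituitary from the other tissues in each library. Their summed level was 930 to 1831 CPM (median 1432) in high plane pituitary libraries and 875 to 1736 CPM (median 1500) in low plane ones. In the ARC the sum was 101 to 158 CPM (median 123) on the high plane and 87.1 to 525 CPM (median 136) on the low plane. In the testes it was 92.2 to 166 CPM (median 149) and 105 to 184 CPM (median 147). Pituitary libraries did not overlap with those of the other tissues, and the planes overlapped within each tissue. On the high plane the separation follows from the rule, which chose the genes on those libraries. The low plane libraries, which the rule did not use, were separated as well. In tissue RNA, fewer cells that express a gene and less RNA per cell cannot be told apart.

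**Figure D1:**
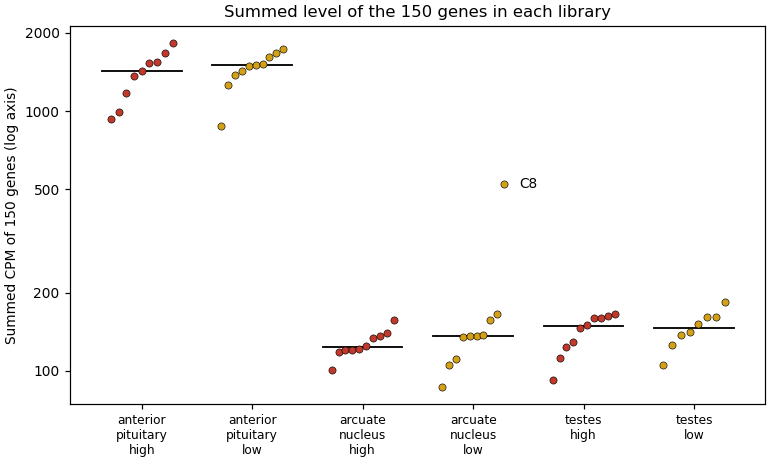
Summed CPM of the 150 genes (log axis) in each of 57 libraries by tissue and plane of nutrition. Points are libraries and lines are group medians. The 19 pituitary libraries lie at 875 CPM or above, while the others lie at 184 CPM or below except the low plane ARC library C8 at 525 CPM. The high plane libraries were used to choose the genes.

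Single genes of the group had high plane pituitary means of 2.07 to 19.8 CPM (median 7.81). In the ARC the means were 0 to 5.35 CPM (median 0.374) and in the testes 0 to 5.22 CPM (median 0.564). A mean under 0.1 CPM was found for 40 of the genes in the ARC, for 20 in the testes and for 12 in both. The ratio that chose them ran from 3.41 to 37.03 (median 5.36). These values chose the genes and are descriptive.

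The gene with the largest ratio, ENSBTAG00000031376, had 5.85, 7.69, 9.94, 12.6, 13.5, 14.6, 16.7, 19.4 and 67.6 CPM in the 9 high plane pituitary libraries. The highest of these was A36, more than 3 times the next. On the low plane the values were 0.762, 0.873, 1.67, 2.10, 2.40, 4.06, 4.34, 5.54, 7.99 and 8.29 CPM. Outside the pituitary the gene had no read in 8 of 10, 8 of 10, 8 of 10 and 6 of 8 libraries, in the order of high and low plane ARC and high and low plane testes. The planes overlapped by a few pituitary libraries, and the other tissues never exceeded 0.134 CPM.

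The second, ENSBTAG00000001527, had 6.70 to 31.5 CPM (median 15.3) on the high plane and 13.7 to 36.7 CPM (median 24.3) on the low plane. Its mean elsewhere was at most 0.108 CPM in any group. ENSBTAG00000007359, ENSBTAG00000046220 and ENSBTAG00000018914 followed, with ratios of 21.4 and more. ENSBTAG00000021079, the sixth, was among the most even, at 8.41 to 17.3 CPM on the high plane and 9.86 to 16.9 CPM on the low plane. Ranks 7 to 10 were ENSBTAG00000011720, ENSBTAG00000011733, ENSBTAG00000039820 and ENSBTAG00000013368, with ratios of 18.5, 17.9, 14.9 and 14.9.

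At the limit of the choice the ratios were close. The last 3 chosen, ENSBTAG00000013778, ENSBTAG00000003253 and ENSBTAG00000031778, had ratios of 3.44, 3.43 and 3.41. The first 3 left out, ENSBTAG00000025124, ENSBTAG00000030927 and ENSBTAG00000037693, had ratios of 3.38, 3.37 and 3.36. Genes on both sides of the limit therefore had nearly the same contrast between tissues. When each high plane pituitary library was left out in turn, 139 to 145 of the 150 were chosen again, and 119 were chosen each time. The same rule applied to low plane libraries chose 97 of the 150. Without the libraries with a score under 2 it chose 117.

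A few genes had most of their reads in 1 library. ENSBTAG00000045661 had 63.6 CPM in the high plane library A39, while the other 8 high plane pituitary libraries had 0 to 3.52 CPM and the low plane ones 0 to 7.11 CPM. A39 alone supplied 90.6% of its high plane sum, and without A39 the rule did not choose it. ENSBTAG00000011720 had 91.3 CPM in A51 and 5.75 to 14.3 CPM in the other high plane libraries. On the low plane it had 62.9 CPM in A47, with 2.10 to 23.9 CPM in the rest. These were the 2 genes with over 50% of the high plane pituitary sum in 1 library.

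**Figure D2:**
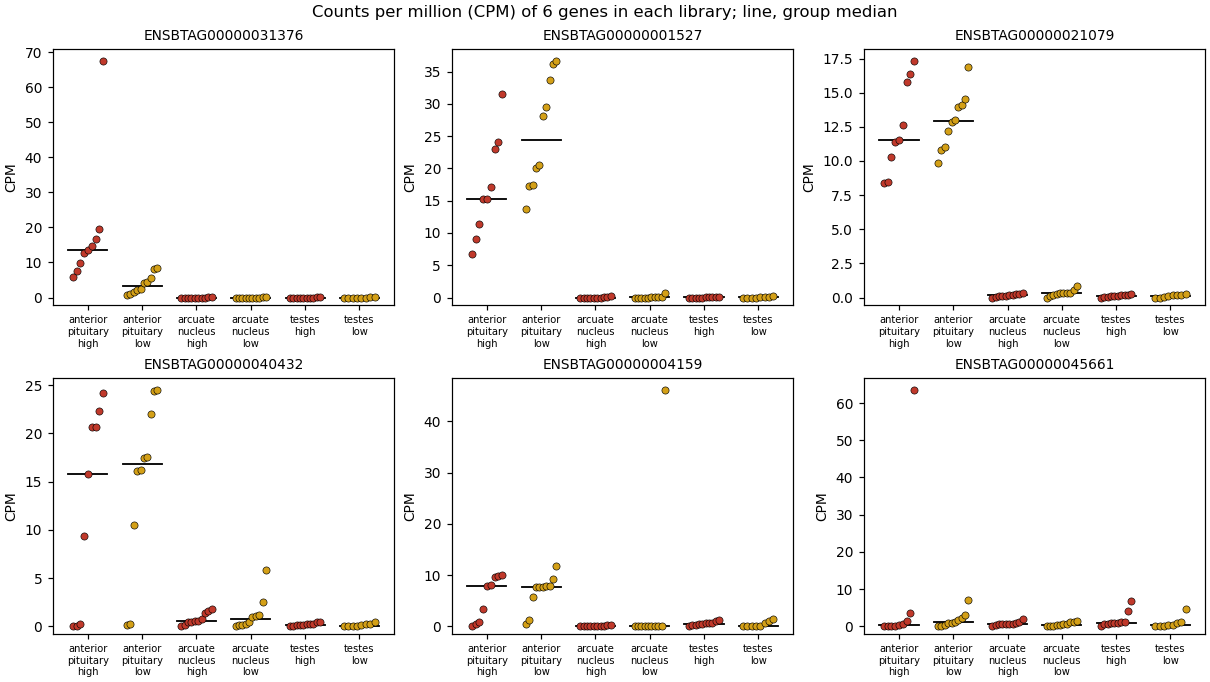
CPM of 6 of the genes in each library by tissue and plane of nutrition, with points for libraries and lines for group medians, on linear axes that differ between panels. ENSBTAG00000031376, ENSBTAG00000001527 and ENSBTAG00000021079 are near 0 outside the pituitary, ENSBTAG00000040432 is near 0 in 5 pituitary libraries, ENSBTAG00000004159 reaches 46.2 CPM in 1 ARC library and ENSBTAG00000045661 reaches 63.6 CPM in 1 pituitary library.

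The low plane libraries, which the rule did not use, were then compared between tissues to ask whether the contrast held in other samples. Without any filter on low counts, 144 of the 150 genes were higher in the low plane anterior pituitary than in both the ARC and the testes (edgeR quasi-likelihood test, false discovery rate, FDR, below 0.05 in both). Of all 22439 genes 6.8% met the same condition. With edgeR's default filter 143 of 148 genes met it, where the share of all 15808 genes tested was 8.86%. In single unfiltered contrasts 146 were higher than in the ARC and 147 than in the testes, and 18.7% and 18.6% of all genes were. None of the 150 was lower in either contrast by this test. The median log2 difference was 3.95 from the ARC (range 0.66 to 9.09) and 4.05 from the testes (range 0.77 to 9.16), and over all genes it was 0.00 and -0.19.

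In 72 of the 150 genes each low plane pituitary library lay above each low plane ARC and testes library, which held for 1.17% of all genes and 1.8% of those from 2 to below 20 CPM. Without C8 it held for 95 of the 150 and for 1.38% of all genes. The low plane ratio ran from 1.20 to 42.5 (median 5.23) and was above the high plane ratio for 66 genes. It was below 3 for 32 genes. ENSBTAG00000001527 had the largest, 42.5. That of ENSBTAG00000031376 was 8.25, against 37.03 on the high plane.

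**Figure D3:**
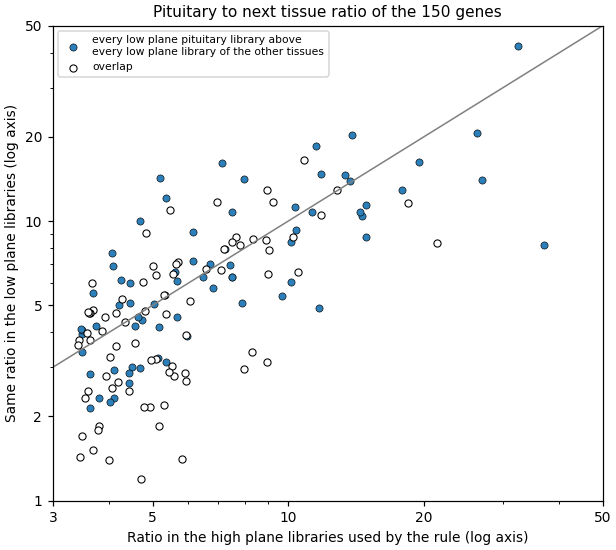
Ratio of anterior pituitary to the larger of ARC and testes mean CPM, 0.5 CPM added to each, for 150 genes in the low plane libraries against the high plane libraries that chose them (both log axes). Filled points are the 72 genes with each low plane pituitary library above each low plane library of the other tissues, and the line marks equal ratios. The 66 genes above the line had the larger ratio on the low plane.

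Of the 148 genes that passed the default filter, 5 did not pass the test in both contrasts. ENSBTAG00000045661 passed in neither (log2 difference 1.66 from the ARC, FDR 0.0681, and 1.21 from the testes, FDR 0.203, by edgeR). ENSBTAG00000004159 (0.86, FDR 0.550) and ENSBTAG00000001755 (1.20, FDR 0.0680) did not pass against the ARC, where C8 held 46.2 and 18.4 CPM of them. ENSBTAG00000013778 did not pass against the ARC either (0.60, FDR 0.164), with low plane means of 14.02 CPM in the pituitary and 9.62 CPM in the ARC. ENSBTAG00000034154 did not pass against the testes (0.77, FDR 0.0933).

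On the low plane the genes had pituitary means of 0.432 to 31.5 CPM (median 7.47), and 129 of 150 stayed between 2 and 20 CPM. The 16 at 20 CPM or more were led by ENSBTAG00000004662 at 31.5 ± 17.4 CPM, ENSBTAG00000018303 at 25.9 ± 10.8 CPM, ENSBTAG00000001527 at 25.3 ± 8.53 CPM, ENSBTAG00000020991 at 23.9 ± 30.02 CPM and ENSBTAG00000013278 at 23.4 ± 9.52 CPM (SD, n = 10 each). The 5 below 2 CPM were ENSBTAG00000019540 at 0.432 ± 0.472 CPM, ENSBTAG00000039504 at 0.748 ± 1.04 CPM, ENSBTAG00000015204 at 1.33 ± 0.859 CPM, ENSBTAG00000013364 at 1.49 ± 0.863 CPM and ENSBTAG00000045661 at 1.76 ± 2.13 CPM (SD, n = 10 each).

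How even a gene was between calves differed widely. The coefficient of variation over the 10 low plane pituitary libraries was 14.04% to 139% with a median of 43.7%, and the median of the other 5564 genes in the same range was 39.9%. ENSBTAG00000040001 (14.04%), ENSBTAG00000017541 (14.4%), ENSBTAG00000021079 (16.1%), ENSBTAG00000020172 (16.8%) and ENSBTAG00000038604 (16.9%) were the most even. For each of these 5 genes every low plane pituitary library was above every low plane library of the other tissues. The most uneven were ENSBTAG00000039504 (139%), ENSBTAG00000020991 (126%), ENSBTAG00000011720 (125%), ENSBTAG00000045661 (121%) and ENSBTAG00000019540 (109%).

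ENSBTAG00000019540 and ENSBTAG00000039504 were high and low in many of the same libraries. On the high plane ENSBTAG00000019540 had 11.97 CPM in A29, 9.92 in A23, 3.71 in A11, 1.57 in A39, 1.36 in A1 and 0 in A57, A51, A18 and A36. ENSBTAG00000039504 had 6.66 CPM in A29, 4.17 in A23, 6.10 in A11, 1.03 in A39, 1.93 in A1, 0.145 in A57 and 0 in A51, A18 and A36. Both were thus highest in A29, A23 and A11 and at or near 0 in the same 4 libraries. Of these, A57, A51 and A18 had a library score under 2. Low values there were common in the group, since 68 of the 150 genes had a median in the 5 such libraries below 0.5 times that of the 14 others. The share of all genes with such a median was not counted. On the low plane both had no read in A46 and A19, and their highest values were in A52, A14 and A4. ENSBTAG00000020991 was high in part of the same libraries, at 51.3 CPM in A11 and 90.4 CPM in A52, but had 3.90 CPM in A29. These 3 genes were set side by side after their values were seen.

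The first principal component of the log2 (CPM + 0.5) of the 150 genes over pituitary libraries held 67.9% of the variance and the second 6.48%. On the first, the 5 libraries with a score under 2 lay at -21.5 to -13.1 and the 14 others at 2.68 to 8.74, without overlap. Within plane of nutrition, 77 of 148 genes rose and 43 fell with the score (edgeR quasi-likelihood test, FDR below 0.05), 81.1% in all. Of all 14411 genes tested 87.2% passed, 44.9% rising and 42.3% falling. In 58 of the 150 genes each of the 5 low-score libraries was below each of the 14 others, which held for 40.9% of the genes from 2 to below 20 CPM, and in 7 each was above (4.67%), where 15.3% of such genes were. The score thus moved with most of the genes, as with most genes in the files, and more of the 150 rose with it than fell.

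ENSBTAG00000040432, chosen for its split after values were seen, had 0, 0, 0.225, 0.182 and 0.261 CPM in A57, A51, A18, A47 and A10. In the 14 other pituitary libraries it had 9.36 to 24.5 CPM. The groups of libraries did not overlap, and both contained both planes. ENSBTAG00000039974 had at most 0.0606 CPM in the 5 and 3.51 to 10.0 CPM in the 14. In the opposite direction ENSBTAG00000040069 had 4.97 to 14.7 CPM in the 5 and 0.566 to 4.202 CPM in the 14. The median of the 5 libraries was below 0.5 times that of the 14 for 68 genes, below 0.1 times for 20, over 2 times for 19 and between 0.5 and 2 times for 63. The same ratios were not counted over all genes, so these counts do not set the group apart.

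**Figure D4:**
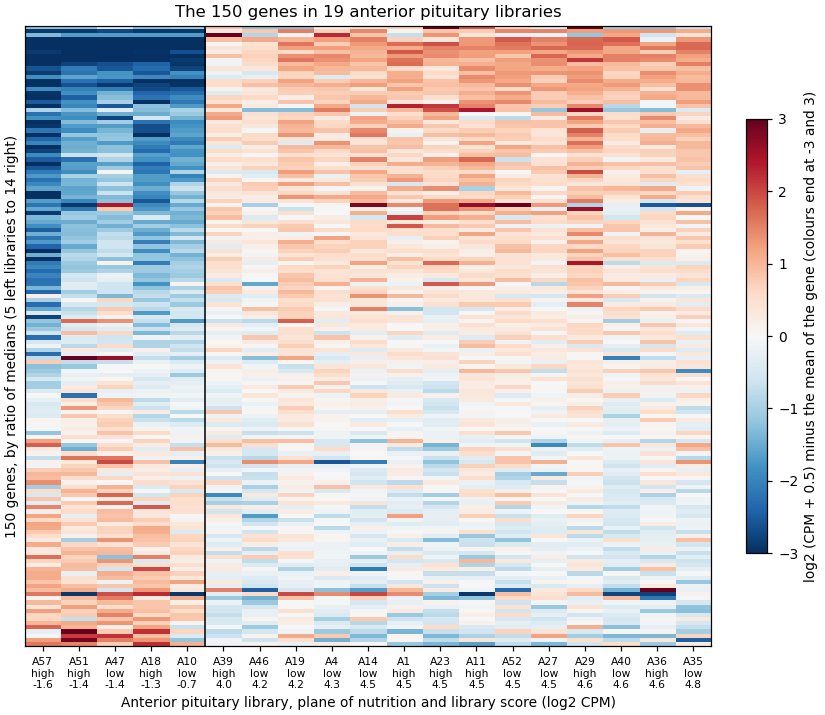
Each row is 1 of the 150 genes and each column 1 of 19 anterior pituitary libraries, ordered by library score from left to right, and colour gives log2 (CPM + 0.5) minus the mean of the gene. The 5 libraries left of the line have scores of -1.63 to -0.75 and hold both planes of nutrition. Rows are ordered by the ratio of the median of these 5 libraries to that of the 14 others. Lower values of the 5 in the upper rows and higher values in the lower rows follow from that order.

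Plane of nutrition was compared within each tissue, with log2 fold changes taken as low minus high plane. The rule used the high plane libraries of these same contrasts, and the comparisons share them, so counts of genes are given beside those of all genes as a description. In the anterior pituitary 1 of 148 genes tested was a differentially expressed gene (DEG, FDR below 0.05 by edgeR's quasi-likelihood test), 0.676% against 0.562% of all 14411 genes. The median log2 fold change was 0.02 for the group and 0.02 for all genes. At an unadjusted p below 0.05 there were 22 of the 148, of which 6 were higher on the low plane, 14.9% against 7.42% of all genes. A p that misses the threshold does not show that a gene did not differ, and the median standard error was 0.35 on the log2 scale.

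The 1 DEG was ENSBTAG00000031376, whose values are given above. Its mean was 18.7 ± 18.8 CPM (SD, n = 9) with the high plane against 3.80 ± 2.76 CPM (SD, n = 10) with the low plane, and it fell by 2.30 on the log2 scale (standard error 0.52, FDR 0.0474 by edgeR). Without A36 the log2 fold change was -1.77 and the FDR 0.1002. It was below 0.05 in 4 of the 19 fits that left out 1 library, with FDR of 0.0302 to 0.101, and in 7 of 10 other alternatives, with FDR of 0.000561 to 0.0607. The gene was ranked first on the same high plane values, which favours a negative log2 fold change in any of these fits.

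More genes of the group passed when the library score was accounted for. With the score as covariate 18 of 148 were DEG, 6 higher and 12 lower on the low plane, 12.2% against 8.99% of all genes. Without the 5 libraries with a score under 2, an alternative added after the data were seen, 12 of 150 were DEG, 3 higher and 9 lower, 8% against 5.72% of all genes. ENSBTAG00000031376 was lower on the low plane in both, by log2 fold changes of -2.30 (FDR 0.00513) and -2.64 (FDR 0.0151) in edgeR.

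In the ARC 55 of the 150 genes passed the filter and 0 were DEG, as were 0.0% of all 14757 genes, by edgeR's quasi-likelihood test. At an unadjusted p below 0.05 there were 4 of the 55, all higher on the low plane, 7.27% against 9.92% of all genes. This order depended on the fit. With the library score as covariate there were 10 of 55 (18.2% against 3.75%). Without the libraries with a score under 2 there were 8 of 60 (13.3% against 3.87%), and without a filter 26 of 150 (17.3% against 9.07%). DESeq2 had 2 of 55 (3.64% against 11.2%). Without TMM factors there were 4 (7.27% against 9.33%), and without C8 3 (5.45% against 10.8%). DESeq2 gave 0 DEG among the 55 and 1 among all genes (0.00678%). The median log2 fold change was 0.25 with C8 and 0.01 without it.

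C8 had a far higher summed level of the 150 genes than any other ARC library. Its summed level was 525 CPM, while the other 19 had 87.1 to 166 CPM, and 92 of the genes were highest in C8 among the 20, which held for 7.33% of all genes. ENSBTAG00000004159 had 46.2 CPM from 699 reads in C8, at most 0.262 CPM in the other ARC libraries and at most 11.8 CPM in any pituitary library. ENSBTAG00000009733 had 35.2 CPM in C8, at most 2.56 CPM in the other ARC libraries and a pituitary median of 15.5 CPM. In all, 8 of the 150 genes were above their pituitary median in C8 and 4 above every pituitary library. Neither count was made over all genes. The 150 pituitary-enriched genes chosen by the same ratio at 20 CPM or more summed to 8978 CPM in C8 and to 2730 to 6416 CPM in the other ARC libraries. C8 was thus 3.92 times the median of the others for the scarce genes and 2.37 times for the abundant ones. The excess of C8 over that median was 26.1% of the median pituitary sum for the scarce genes and 1.61% for the abundant ones. Markers of cell types could not be read without gene names, and which cells C8 held was not tested.

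**Figure D5:**
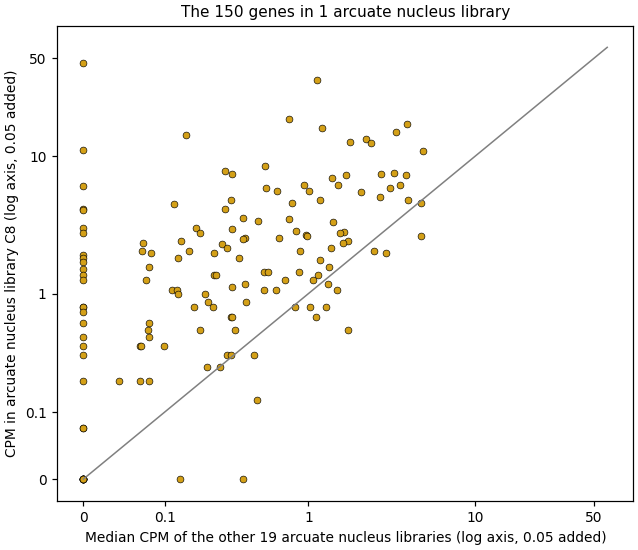
CPM of the 150 genes in the low plane ARC library C8 against the median of the other 19 ARC libraries (log axes, 0.05 CPM added), with a line at equal values. Most points lie above the line, 92 of them above each of the other 19 libraries, and the highest is ENSBTAG00000004159 at 46.2 CPM.

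The pituitary library A47, also 1 of the 5 with a score under 2, differed in another way. The abundant pituitary-enriched genes summed to 124439 CPM in A47 and to 225677 CPM or more in the other 18 pituitary libraries. The 150 scarce genes summed to 1428 CPM in it, within the range of its group. Of the 10 low plane libraries A47 was the highest for 45 of the 150 genes, 30% against 30.3% of all genes, which is no more than the background. ENSBTAG00000004662 had 75.4 CPM in A47 and 11.4 to 39.5 CPM in the others.

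In the testes 73 of the genes passed the filter and 9 were DEG, 6 higher and 3 lower on the low plane, 12.3% against 6.9% of all 15310 genes (edgeR quasi-likelihood test). Their levels there were low. ENSBTAG00000011677 had 0.450 to 3.92 CPM (median 1.94) on the high plane and 0 to 0.355 CPM (median 0.163) on the low plane, without overlap, and fell by 3.62 on the log2 scale (standard error 0.50, FDR 0.0120). The planes did not overlap for 2 of the 73 genes, counting this one, 2.74% against 0.229% of all genes tested. Both were among the 9 DEG, and 2.93% of all 1057 testes DEG did not overlap. ENSBTAG00000019683 had 0.260 to 1.17 CPM on the high plane and 0.830 to 1.86 CPM on the low plane (log2 fold change 1.21, standard error 0.26, edgeR FDR 0.0206). ENSBTAG00000009481 had 0.192 to 0.876 CPM and 0.608 to 3.85 CPM (1.60, standard error 0.37, edgeR FDR 0.0234).

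The library score moved with these changes. In ENSBTAG00000009481 the 4 highest low plane libraries, B2, B21, B20 and B26, were among those with a score under 2. With the score as covariate its log2 fold change was 0.81 (FDR 0.156), and that of ENSBTAG00000011677 was -3.05 (FDR 0.00362). Of the 9 DEG 5 had an FDR below 0.05 with the score, and all 9 had the same sign. The group then had 6 DEG, 2 higher and 4 lower, 8.22% against 6.22% of all genes. Without the 6 testes libraries with a score under 2, 0 of 93 genes and 0.0% of all genes were DEG by edgeR in a fit of 9 high plane and 3 low plane libraries. At an unadjusted p below 0.05 there were 16 of the 93, 17.2% against 16% of all genes.

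The diet effect itself was compared between tissues in 1 fit over all 57 libraries. These include the high plane libraries that chose the genes, which favours a smaller log2 fold change in the pituitary than elsewhere. The counts are therefore a description. The effect in the pituitary differed from that in the testes for 10 of the 150 genes, 6.67% against 3.4% of all 16476 genes, 3 with a larger and 7 with a smaller log2 fold change in the pituitary. With the library score as covariate 3 were larger and 1 smaller, and without the libraries with a score under 2, 3 were larger and 0 smaller. ENSBTAG00000011677 was among them (difference 3.47, standard error 0.71, edgeR FDR 0.00253). Its pituitary values overlapped between planes, at 1.74 to 26.998 CPM on the high and 1.502 to 21.9 CPM on the low plane. ENSBTAG00000019683 (-1.62, FDR 0.00571) and ENSBTAG00000009481 (-1.99, FDR 0.0265) differed in the other direction. Against the ARC 1 gene passed, ENSBTAG00000007990 (-5.24, standard error 1.20, edgeR FDR 0.0410), where 0.212% of all genes did. It had 3.04 CPM in C8 and at most 0.0625 CPM in the other ARC libraries, and without C8 the difference was -1.48 with an FDR of 0.632.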

How the data were processed

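For each of 57 libraries the authors deposited a read count per Ensembl gene, unscaled and whole. The submitters' processing notes name CASAVA 1.4, STAR, HTSeq and edgeR. The genome build and annotation release are not given in the sources used here. The authors removed 3 libraries with few reads, not analysed here. Groups came from the labels' tissue and diet. The members and gene lists were chosen with earlier results of these data known. Lists by gene symbol, cell type markers and promoter motifs could not be applied without gene names.

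Tests were run with edgeR 4.0.16 in R 4.3.3 (default filter, TMM, quasi-likelihood test, Benjamini-Hochberg adjustment over all genes tested). Within each tissue the planes were compared, and tissues were compared in the low plane libraries in 1 fit. CPM used library totals. The library score averages log2 CPM (prior count 2) over 200 genes taken from the other tissues, none of them a member. Genes named were the diet DEG of the pituitary, the 10 largest ratios, 3 on either side of the limit, and the 5 most and least variable and most and least abundant on the low plane. All other genes were named after their values were seen. Per the study's methods each calf gave 1 library per tissue, so libraries of a group are separate animals. Totals, 898979 to 32009433 reads, set the precision of low counts. The alternatives were DESeq2 1.42.0, limma 3.58.1 with voom, other scaling and filters, covariates, and leaving out libraries.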

Additional observations from a re-analysis of the deposited data

Results flagged for a closer look

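In 30 sets of values, each from 1 group of libraries, the gap between the most extreme library and its nearest neighbour was compared with the range. In 8 cases it was past the limit for outlying values, which chance passes in about 1 in 20 sets. That rate cannot be set against the 8, since several genes were chosen on these libraries or named for their extreme values. In the ARC library C8 the summed level of the 150 genes was 525 CPM, with 166 CPM in the nearest other low plane library. The same library held 46.2 CPM of ENSBTAG00000004159, with 0.121 CPM in the nearest, and 11.1 CPM of ENSBTAG00000007359, with 0.138 CPM in the nearest.

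In the anterior pituitary, ENSBTAG00000031376 had 67.6 CPM in the high plane library A36, with 19.4 CPM in the nearest. ENSBTAG00000045661 had 63.6 CPM in the high plane library A39, with 3.52 CPM in the nearest, and 7.11 CPM in the low plane library A4, with 3.12 CPM in the nearest. ENSBTAG00000007359 had 39.9 CPM in the low plane library A47, with 25.8 CPM in the nearest. In the testes the library score of the high plane library B42 was -0.53, with 4.33 in the nearest.

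The diet effect was compared between tissues by a test of the difference itself. That test shares the high plane libraries that chose the genes, so its counts are a description. Between pituitary and ARC it differed for 1 of the 150 genes, 0.667% against 0.212% of all 16476 genes. Between pituitary and testes it differed for 10, 6.67% against 3.4% of all genes. Without C8 the 1 gene against the ARC no longer passed.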

How the results depend on the processing

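The contrast between tissues on the low plane kept 141 to 146 genes in the 28 fits without 1 library and 143 to 147 under the other alternatives. The counts of DEG by diet were less stable, and the cause was not tested. The share of all genes called, in brackets where given, mostly moved with them. For the diet fits within a tissue without 1 library it is not given. Whether those counts moved with the share of all genes cannot be read from them. In the anterior pituitary 1 DEG (0.562%) became 3 with the exact test (0.888%), 5 with DESeq2 (1.79%), 15 with voom (7.58%), 18 with the library score (8.99%) and 12 without the libraries with a score under 2 (5.72%). It became 0 without a filter (0.318%), without TMM factors (0.347%) or with CPM above 1 in at least 9 libraries (0.484%). At an unadjusted p below 0.05 these had 23, 22 and 22 genes, 15.3%, 14.9% and 15% against 6.9%, 5.86% and 7.18% of all genes. Without 1 library the count was 0 to 2 (2 without A11 or A10, 0 in 13 of 19 fits). The median pituitary log2 fold change was -0.04 to 0.06 without 1 library. In the testes 9 DEG (6.9%) became 14 with DESeq2 (12.9%), 15 without TMM factors (15.3%, 12 of the 15 higher and 3 lower) and 0 (0.0%) without the libraries with a score under 2. Without 1 testes library there were 4 to 19, with 19 without B42, 16 without B31, 15 without B7, 14 without B50, 5 without B21 and 4 without B2. The ARC count was 0 in all 20 such fits. For the difference in diet effect between pituitary and ARC, 1 gene (0.212%) became 9 with the library score (0.795%). It became 0 without TMM factors (0.085%), without a filter (0.0913%) or without C8 (0.237%). At an unadjusted p below 0.05 there were 35, 36 and 18, 23.3%, 24% and 12% against 10.1%, 11.8% and 20.6% of all genes. Between pituitary and testes 10 (3.4%) became 4 with the score (2.49%), 3 without the libraries with a score under 2 (1.03%) and 11 without C8 (3.32%). The choice of genes shared 97 of 150 with a choice on the low plane and 139 to 150 with those without 1 high plane library. Against other forms of the rule it shared 143 (pseudocount 0.1), 132 (pseudocount 2) and 140 (TMM). ENSBTAG00000009481 had an edgeR FDR of 0.0576 at most without 1 testes library. No paired analysis was possible because the labels give each library its own number and do not name the calf. Genes with few reads in the ARC and testes limit what could be tested there, at 55 and 73 of the 150.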
